A study of Drosophila melanogaster with 12 samples.

Results

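The Hedgehog and Dpp genes that drive the morphogenetic furrow of the fly eye were followed in eye discs of 4 fly genotypes. The rule named 10 genes by symbol: the ligand genes hh and dpp, the receptor genes ptc, smo and tkv, the effector genes ci, Mad and Dad, and the furrow brakes h and emc. The probe annotation used here listed 9 of the 10, out of 11983 genes tested in all, and h was not analysed here. The furrow is a groove that sweeps across the eye disc from posterior to anterior and leaves photoreceptor clusters behind it. Hedgehog is made by the photoreceptors already formed, binds Patched, and so frees Smoothened to keep the transcription factor Ci active in cells just ahead. Those cells make Dpp, a BMP ligand that signals through the receptor Thickveins and the Smad protein Mad, and moving Hedgehog and Dpp carry the furrow forward.

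RNA came from eye discs of Drosophila melanogaster at the last larval stage and was hybridised to Affymetrix arrays, with 3 arrays for each of 4 genotypes. Canton S, the reference group, is a common laboratory wild-type stock. The rbf120a group carried an allele of Rbf, the fly retinoblastoma gene that restrains E2F, the wtsX1Lats group an allele of warts, the kinase gene of the Hippo growth-control pathway, and the rbf120a wtsX1Lats group (called the double mutant here) both. Discs of the mutant groups were mosaic, per the series' design text: mutant cells outgrew their wild-type neighbours and made up most, but not all, of the tissue. The labels do not give the sex of the larvae, the age in hours, the recombinase or the marker chromosomes, so allele and strain background cannot be told apart in a comparison with Canton S. The labels call the replicates biological without saying how many discs each held, so the p-values cover the spread between these samples. In RNA from whole discs, fewer cells of a type and less RNA per cell cannot be told apart.

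Values are log2 signals, so a difference of 1 is a 2-fold change, and the scale allows comparison of a gene between arrays but not of a gene with another gene. Changes were tested with limma in a single fit over all 12 arrays, and a change was called at a Benjamini-Hochberg adjusted p under 0.05 over the 11983 genes. Array medians lay between 5.76 and 5.86. Of the 11 eye disc genes listed as markers, 10 were measured, and their mean log2 signal lay between 10.2 and 10.3 for Canton S and between 9.49 and 10.2 over the mutant arrays. Genes of other tissues were present too: the 9 blood cell genes had means of 8.23 to 8.90 in Canton S and 7.13 to 7.99 in the mutants, and the mean of the 5 muscle genes measured ranged from 9.44 to 11.99 within wtsX1Lats. The part of other tissues in the results was not tested. Several arrays stood apart. In replicate 3 of wtsX1Lats the 3' probe sets of the actin, eIF-4a and GAPDH controls exceeded the 5' ones by 1.7, 1.90 and 1.81, where the other 11 arrays reached at most 0.824, 0.947 and 1.43. The 18S rRNA control went the other way, at 0.706 there against 1.22 to 2.47. In replicate 1 of wtsX1Lats 15.7% of all genes had their lowest value of the 12 arrays and 25.5% their highest. In replicate 2 of Canton S, the reference group, these shares were 18.4% and 12.4%.

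No furrow gene passed the test against Canton S in any mutant genotype. In rbf120a against Canton S, 0 of 9 were called, where 3.5% of all genes were, and 0 of 9 had an unadjusted p under 0.05 (12.5% of all genes did). In wtsX1Lats, 0 of 9 were called beside 5.61% of all genes, and hh alone had an unadjusted p under 0.05 (20.7% of all genes). In the double mutant, 0 of 9 were called beside 5.49% of all genes, and hh and tkv had an unadjusted p under 0.05 (16.4% of all genes). These 3 comparisons share the Canton S arrays. Of the 95% intervals, that of dpp reached furthest from 0 each time, to a 1.69-fold decrease in rbf120a, a 2.03-fold one in wtsX1Lats and a 1.79-fold one in the double mutant.

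**Figure D1:**
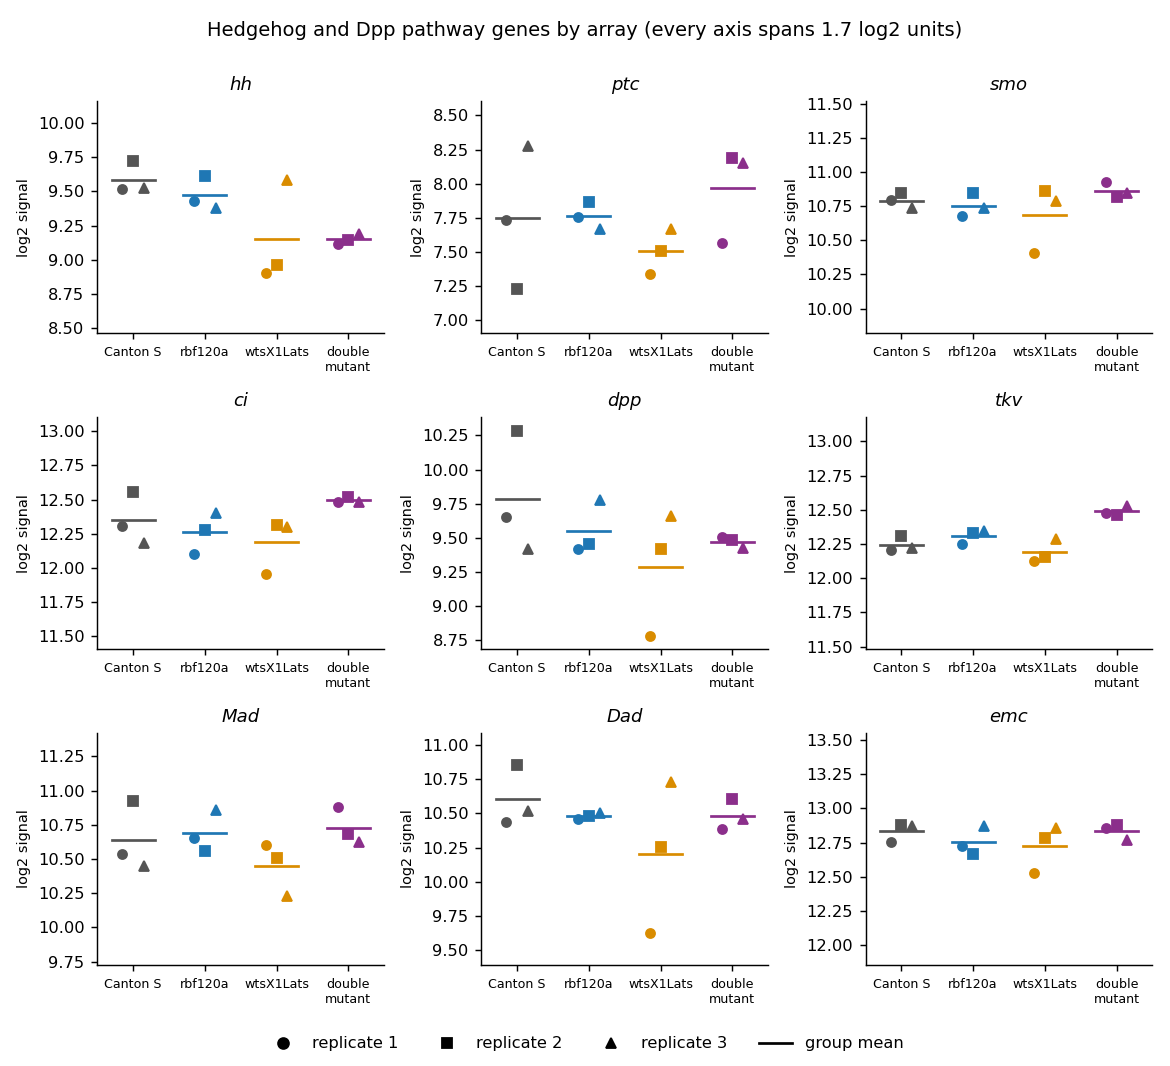
Log2 signal of the 9 furrow genes in each of the 12 arrays (points, shaped by replicate) with the mean of each genotype (bars); every vertical axis spans the same number of log2 units. hh is low in the double mutant and in 2 of the 3 wtsX1Lats arrays, tkv is highest in the 3 double mutant arrays, and the remaining genes overlap between every mutant genotype and Canton S.

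**Figure D2:**
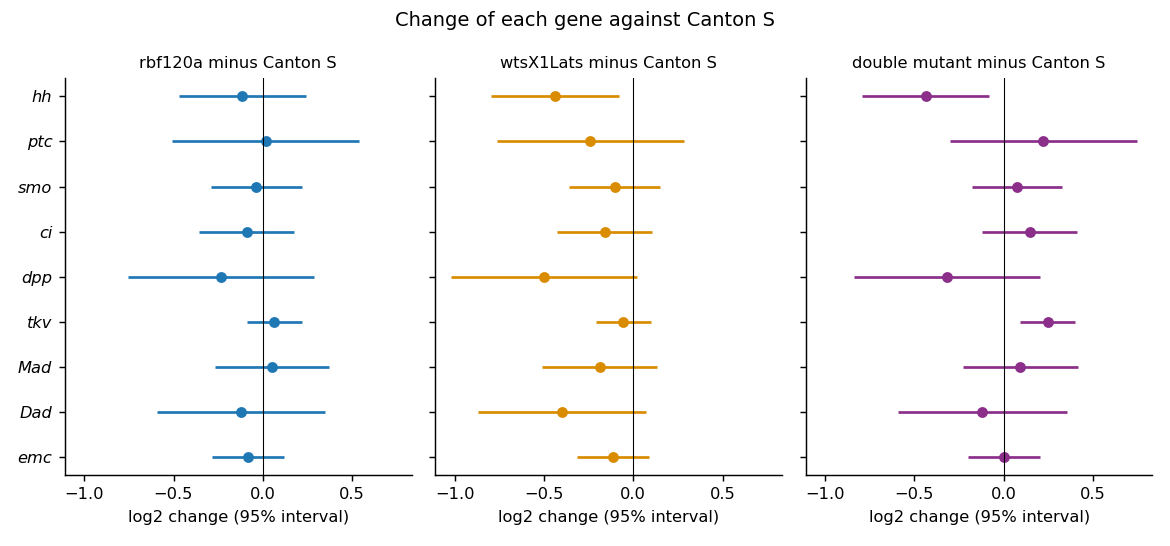
Log2 change of each furrow gene against Canton S (points) with its 95% interval from the limma fit (lines), for rbf120a, wtsX1Lats and the double mutant. The intervals of hh lie below 0 in wtsX1Lats and in the double mutant and that of tkv above 0 in the double mutant, before adjustment over all genes; the intervals of dpp, ptc and Dad are the widest.

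The Hedgehog ligand gene was lower in 5 of the 6 arrays with the wts allele than in every array without it, without passing the test over all genes. hh (CG4637, chromosome arm 3R) was at 9.52, 9.72 and 9.52 in replicates 1, 2 and 3 of Canton S, at 9.43, 9.61 and 9.38 for rbf120a, at 8.90, 8.96 and 9.58 for wtsX1Lats, and at 9.12, 9.14 and 9.19 for the double mutant. Thus all 3 double mutant arrays and replicates 1 and 2 of wtsX1Lats lay below every array of Canton S and rbf120a, while replicate 3 of wtsX1Lats, the array with the large 3' excess, lay among them. The double mutant differed from Canton S by -0.44 ± 0.16 (SE), 0.738 times its signal, with a 95% interval of -0.79 to -0.08 and a limma adjusted p of 0.174. wtsX1Lats differed by -0.44 ± 0.16 as well (interval -0.79 to -0.08, adjusted p = 0.145), and by -0.65 (adjusted p = 0.00467) without its replicate 3. Leaving that array out also brought the double mutant past the threshold (adjusted p = 0.0187), with the same difference. Without replicate 1 of wtsX1Lats, which held the lowest hh value, that genotype differed from Canton S by less than in the full fit. In rbf120a the difference was -0.11 ± 0.16, with an interval of -0.47 to 0.24. The order of the group means was Canton S at 9.59 ± 0.12 (SD, n = 3), rbf120a at 9.47 ± 0.12, wtsX1Lats at 9.15 ± 0.38 and the double mutant at 9.15 ± 0.03. Arrays of neighbours in that order overlapped.

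Since hh is transcribed in photoreceptors, the photoreceptor and cone cell genes of the same arrays are given beside it. All 15 listed genes were measured, and 6 fell in wtsX1Lats and 4 in the double mutant against Canton S, with 0 rising in either, where 3.33% and 3.26% of all genes fell. Their median change was -1.03 and -0.91, against 0.02 and 0.00 for all genes, and in rbf120a it was -0.22 with 0 called. The counts moved with the arrays and the fit. In the double mutant the count that fell was 2 without its replicate 1, where 2.94% of all genes were called in either direction. It was 9 and 7 without wtsX1Lats replicate 1 and replicate 3 in turn (9.01% and 8.46% of all genes). In wtsX1Lats it was 11 without its replicate 3 (13.3%) and 2 in a fit of wtsX1Lats and Canton S alone (1.51%). Without any 1 Canton S array it was 4 (2.48%, 4.17% and 4.37%). The mean log2 signal of the list lay between 8.43 and 8.55 for Canton S, between 8.16 and 8.38 for rbf120a, between 7.23 and 8.15 for wtsX1Lats and between 7.54 and 7.89 for the double mutant. The wtsX1Lats array with hh at 9.58 was also the one with the list at 8.15, and the array with hh at 8.90 had the list at 7.23. In rbf120a, by contrast, replicate 3 had the lowest hh of its group, at 9.38, and the highest list mean, at 8.38. Gene lists of other tissues were lower in many of the arrays with the wts allele. Of the 9 antennal disc genes, the photoreceptor list also holds ct. Their mean was 8.32, 8.60 and 9.26 for replicates 1 to 3 of wtsX1Lats. It was 8.55 to 8.75 in the double mutant, against 8.98 to 9.09 in Canton S, so replicate 3 again stood apart from the other wts arrays. The mean of the 5 muscle genes was 9.44, 10.45 and 11.99 for the same wtsX1Lats arrays. It was 10.31 to 10.47 in the double mutant and 10.43 to 11.76 in Canton S. That of the 6 brain genes, of which the photoreceptor list also holds pros, was 6.47 to 6.81 over the 6 arrays with the wts allele and 6.91 to 7.34 over those without it. The 6 glia genes had means of 8.03 to 8.22 and 8.30 to 8.49. The part of photoreceptor number or of these tissues in the hh values was not tested.

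**Figure D3:**
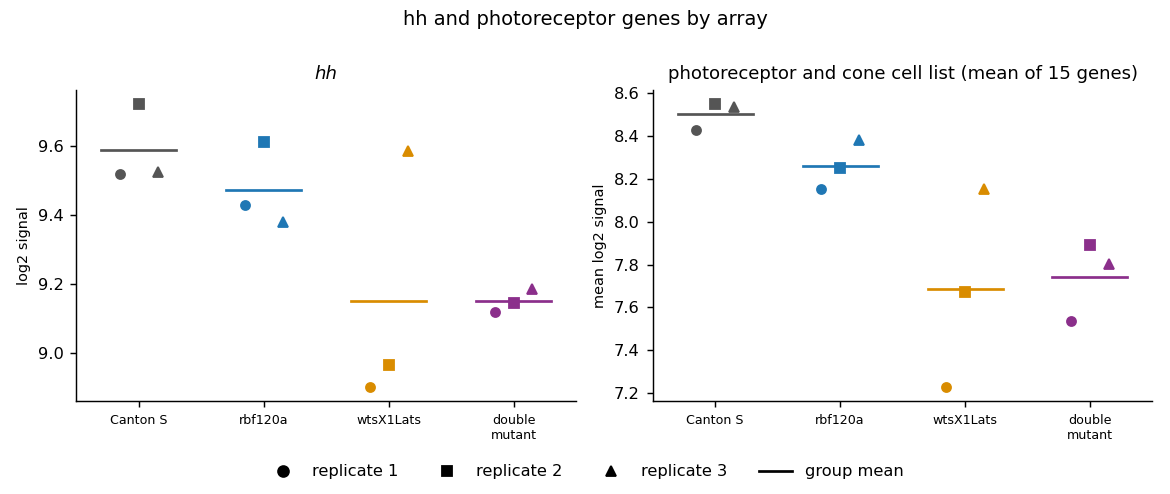
Log2 signal of hh (left) and mean log2 signal of the 15 photoreceptor and cone cell genes (right) in each array, with points shaped by replicate and bars for genotype means. Both are lowest in wtsX1Lats replicate 1, and in both panels wtsX1Lats replicate 3 is the highest of the 6 arrays that carry the wts allele.

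On the receiving side, the Hedgehog receptor and transducer genes had no call, and each mutant genotype overlapped with Canton S. ptc (CG2411, arm 2R) encodes the Hedgehog receptor and is itself a transcriptional target of the pathway, which makes it a common readout of Hedgehog signalling. It was at 7.74, 7.23 and 8.28 for Canton S, 7.75, 7.87 and 7.67 for rbf120a, 7.34, 7.51 and 7.67 for wtsX1Lats, and 7.57, 8.19 and 8.15 for the double mutant. Canton S alone spanned the whole range of the 12 arrays, 1.05, so that every genotype overlapped with it. The difference of ptc from Canton S was 0.02 ± 0.24 (SE) for rbf120a, -0.24 ± 0.24 for wtsX1Lats and 0.22 ± 0.24 for the double mutant. A Canton S array decided the last value: without replicate 2 the double mutant stood at -0.04 and without replicate 3 at 0.49.

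smo (CG11561, arm 2L) encodes the seven-pass membrane protein that Patched holds in check. Its signal was 10.79, 10.84 and 10.73 for Canton S, 10.67, 10.85 and 10.74 for rbf120a, 10.41, 10.86 and 10.79 for wtsX1Lats, and 10.93, 10.82 and 10.85 for the double mutant. Apart from replicate 1 of wtsX1Lats, the arrays lay within a narrow band, and the intervals against Canton S ran from -0.29 to 0.22 for rbf120a, from -0.36 to 0.15 for wtsX1Lats and from -0.18 to 0.33 for the double mutant.

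ci (CG2125, chromosome 4) encodes the Gli-family transcription factor that acts as an activator when Hedgehog is received and as a repressor otherwise. It was at 12.31, 12.56 and 12.18 for Canton S, 12.10, 12.28 and 12.40 for rbf120a, 11.95, 12.32 and 12.30 for wtsX1Lats, and 12.48, 12.52 and 12.48 for the double mutant. The double mutant arrays lay above all 6 arrays of the single mutants and overlapped with Canton S. ci differed by 0.23 ± 0.12 (SE) between the double mutant and rbf120a (adjusted p = 0.694) and by 0.30 ± 0.12 between the double mutant and wtsX1Lats (adjusted p = 0.536).

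The Dpp ligand gene, dpp (CG9885, arm 2L), varied widely among arrays of the same genotype, with a within-group SD of 0.333. It was at 9.66, 10.28 and 9.42 for Canton S, 9.42, 9.45 and 9.78 for rbf120a, 8.79, 9.42 and 9.66 for wtsX1Lats, and 9.50, 9.48 and 9.42 for the double mutant. The highest and the lowest array, replicate 2 of Canton S and replicate 1 of wtsX1Lats, stood at the ends, and the other 10 arrays of the 4 genotypes lay between them. The difference was -0.24 ± 0.24 (SE) for rbf120a, -0.50 ± 0.24 for wtsX1Lats (adjusted p = 0.265) and -0.32 ± 0.24 for the double mutant. Without replicate 1 of wtsX1Lats the difference there was -0.25, and without replicate 2 of Canton S the double mutant stood at -0.07.

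tkv (CG14026, arm 2L), which encodes the type I receptor for Dpp, was the furrow gene measured most tightly, with a within-group SD of 0.059 against a median of 0.145 over all genes. Its signal was 12.20, 12.31 and 12.22 for Canton S, 12.25, 12.33 and 12.34 for rbf120a, 12.13, 12.15 and 12.28 for wtsX1Lats, and 12.48, 12.46 and 12.53 for the double mutant. The 3 double mutant arrays were the highest of the 12, and the other genotypes overlapped with each other. The double mutant was above Canton S by 0.25 ± 0.07 (SE), 1.19 times its signal, with a 95% interval of 0.09 to 0.40. Its limma adjusted p of 0.0684 missed the threshold. The call was made (adjusted p = 0.0263 and 0.0237, with the same change) when replicate 1 or replicate 3 of wtsX1Lats, arrays outside this comparison, was left out of the shared estimate of spread. In rbf120a the difference from Canton S was 0.06 ± 0.07 and in wtsX1Lats -0.06 ± 0.07. A weaker probe set of tkv lay between 4.22 and 4.91 on all 12 arrays. Averaging both probe sets gave a change of 0.07 for the double mutant.

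Mad (CG12399, arm 2L) encodes the Smad protein phosphorylated by the activated Dpp receptor, and Dad (CG5201, arm 3R) an inhibitory Smad that Dpp signalling induces and that dampens it in turn. Mad was at 10.54, 10.92 and 10.45 for Canton S, 10.65, 10.56 and 10.86 for rbf120a, 10.61, 10.51 and 10.23 for wtsX1Lats, and 10.88, 10.69 and 10.63 for the double mutant. Dad, often used as a readout of Dpp activity, was at 10.44, 10.85 and 10.52 for Canton S, 10.46, 10.48 and 10.50 for rbf120a, 9.63, 10.26 and 10.73 for wtsX1Lats, and 10.39, 10.61 and 10.46 for the double mutant. Both genes overlapped between Canton S and every mutant genotype, and the wtsX1Lats arrays of Dad alone were 1.10 apart. Mad differed from Canton S by -0.19 ± 0.15 (SE) for wtsX1Lats and 0.09 ± 0.15 for the double mutant. Dad differed by -0.40 ± 0.22 for wtsX1Lats (adjusted p = 0.328), but by -0.11 without replicate 1 and by -0.66 (adjusted p = 0.0308) without replicate 3, so the array left out decided its value. In the double mutant Dad was at -0.12 ± 0.22, with an interval of -0.59 to 0.35.

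emc (CG1007, arm 3L), which encodes a helix-loop-helix protein without a DNA-binding region that ties up proneural proteins and holds back the furrow, was nearly level. It was at 12.75, 12.88 and 12.87 for Canton S, 12.72, 12.67 and 12.87 for rbf120a, 12.53, 12.78 and 12.86 for wtsX1Lats, and 12.86, 12.88 and 12.77 for the double mutant. The whole range of the 12 arrays was 0.35, the smallest of the 9 genes, and the genotypes overlapped. The interval of its change against Canton S ran from -0.28 to 0.12 for rbf120a, from -0.31 to 0.09 for wtsX1Lats and from -0.20 to 0.20 for the double mutant.

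Single arrays were low or high for most of the 9 genes. Replicate 1 of wtsX1Lats held the lowest of the 12 values for 7 of the 9 genes, all except ptc and Mad, where it held the lowest value of 15.7% of all genes. Replicate 2 of Canton S held the highest value for 5 of the 9 (hh, ci, dpp, Mad and Dad) and the lowest for ptc. Over all genes it held the highest value of 12.4% and the lowest of 18.4%. The median deviation of the 9 genes from their own means was -0.37 in the former array and 0.23 in the latter, while that of all genes was 0.03 and -0.03. wtsX1Lats had the lowest group mean for 8 of the 9 genes (23.2% of all genes), but for 3 of the 9 (24.4%) without its replicate 1. The double mutant had the highest group mean for 6 of the 9 genes, with or without that array, where 19.5% and 23.1% of all genes had theirs. The causes of these array differences were not tested.

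**Figure D4:**
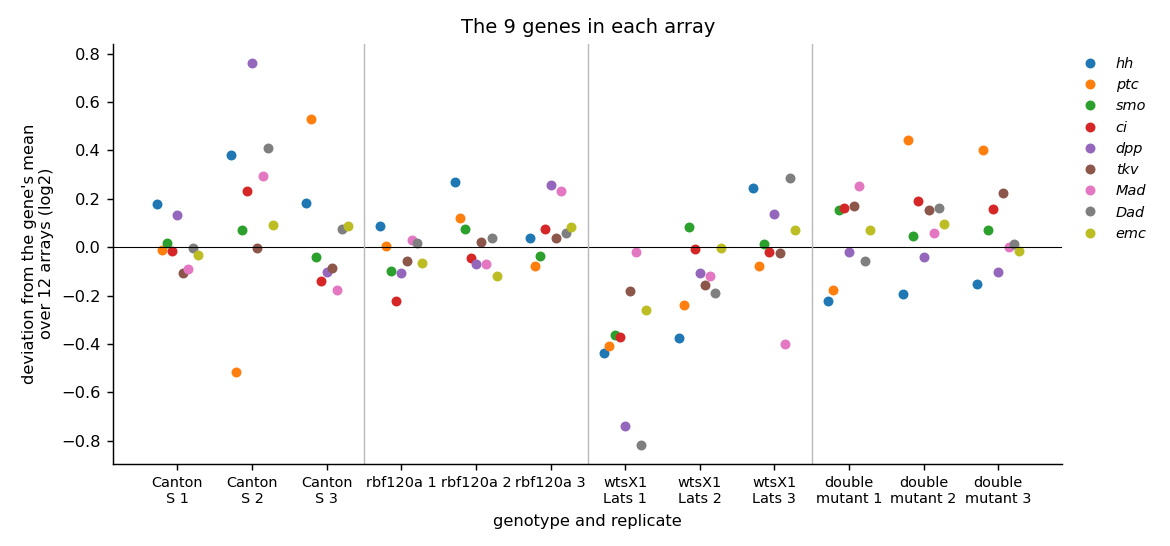
Deviation of each furrow gene from its own mean over the 12 arrays, in log2 units, by genotype and replicate; colours mark genes. Points in wtsX1Lats replicate 1 lie below 0 for all 9 genes, and those of Canton S replicate 2 lie mostly above 0 except ptc and tkv.

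The double mutant was next set against each single mutant, which asks what the second allele adds. Against rbf120a, 0 of 9 furrow genes were called, where 0.676% of all genes were. tkv alone had an unadjusted p under 0.05 (8.38% of all genes), and the arrays of 3 of the 9 (hh lower, ci and tkv higher) did not overlap, beside 23.2% of all genes. tkv differed by 0.18 ± 0.07 (SE, adjusted p = 0.457) and hh by -0.32 ± 0.16 (adjusted p = 0.678). Against wtsX1Lats, 0 of 9 and 0% of all 11983 genes were called, ci and tkv had an unadjusted p under 0.05 (8.62% of all genes), and ci, tkv and Mad did not overlap (14.2% of all genes). tkv differed by 0.30 ± 0.07 and was the 21st gene by p in that comparison, at an adjusted p of 0.471. Against Canton S, hh and tkv were the 2 of 9 genes whose double mutant arrays did not overlap, beside 27.6% of all genes.

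The interaction, the effect of rbf120a in wtsX1Lats discs minus its effect in discs without that allele, was called for 0 of 9 genes and for 0.893% of all genes. Its estimate was above 0 for all 9 furrow genes, with a median of 0.24 against -0.02 for all genes. The 9 values share their arrays: without replicate 1 of wtsX1Lats the interaction of hh was -0.01, that of Dad went from 0.40 to 0.11 and that of dpp from 0.42 to 0.17. ci (0.39 ± 0.17, SE, adjusted p = 0.485) and tkv (0.24 ± 0.10, adjusted p = 0.462) had an unadjusted p under 0.05, as did 9.65% of all genes. The averages over both backgrounds, a contrast chosen after seeing the data, gave 0 of 9 calls as well. For the wts allele hh stood at -0.38 ± 0.12 (adjusted p = 0.0862, 5.67% of all genes called), or at -0.49 (adjusted p = 0.00222) without wtsX1Lats replicate 3. Without wtsX1Lats replicate 1 this hh effect was smaller in size than in the full fit. For the rbf allele tkv stood at 0.18 ± 0.05 (adjusted p = 0.107, 1.91% of all genes called).

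Other genes of the Hedgehog pathway did pass the test. Of 19 listed pathway genes 16 were measured, and 2 rose and 0 fell in wtsX1Lats and in the double mutant, where 2.28% and 2.23% of all genes rose, while 0 were called in rbf120a. Without wtsX1Lats replicate 3, wtsX1Lats had 3 that rose and 3 that fell, and the double mutant 3 and 1. In that setting 13.3% and 8.46% of all genes were called in either direction. Without wtsX1Lats replicate 1 the double mutant had 4 and 1, beside 9.01% of all genes called. boi (X chromosome) encodes a membrane co-receptor that binds Hedgehog together with Patched. It was at 8.91, 9.24 and 9.01 for Canton S and 8.95, 9.08 and 9.30 for rbf120a, but at 10.03, 10.10 and 10.09 for wtsX1Lats and 10.12, 10.09 and 10.11 for the double mutant. The 6 arrays with the wts allele lay above the 6 without it, including the arrays of wtsX1Lats that stood apart for the furrow genes. How many of all genes separate in this way is not given here. boi rose by 1.02 ± 0.12 (SE) in wtsX1Lats (adjusted p = 0.000522), by 1.05 ± 0.12 in the double mutant (adjusted p = 0.000359), and by 1.00 ± 0.12 from rbf120a to the double mutant (adjusted p = 0.00266, where 0.342% of all genes rose). These 3 calls held in all 22 alternatives run for each. In rbf120a the change was 0.06 ± 0.12, and the interaction was -0.02 ± 0.17.

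shf (X chromosome), which encodes a secreted factor needed for Hedgehog to spread through the tissue, rose in the same genotypes by less. It was at 11.40, 11.21 and 11.35 for Canton S, 11.44, 11.45 and 11.37 for rbf120a, 11.73, 11.59 and 11.78 for wtsX1Lats, and 11.71, 11.75 and 11.83 for the double mutant. Again the arrays with the wts allele lay above those without it. The rise was 0.38 ± 0.09 (SE, adjusted p = 0.0231) in wtsX1Lats and 0.45 ± 0.09 (adjusted p = 0.00939) in the double mutant. The wtsX1Lats call ended without any 1 of the 3 Canton S arrays (adjusted p = 0.0504, 0.0753 and 0.0522) and in 3 other of the 22 alternatives (adjusted p up to 0.238), and the double mutant call without its replicate 3 (adjusted p = 0.0602). The median change of the 16 genes was 0.09 for wtsX1Lats and 0.07 for the double mutant, against 0.02 and 0.00 for all genes. In rbf120a the 2 genes of the list with the smallest p were disp, needed to release Hedgehog from the cells that make it, at 0.24 ± 0.11 (adjusted p = 0.416), and the kinase gene gish at -0.25 ± 0.21.

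**Figure D5:**
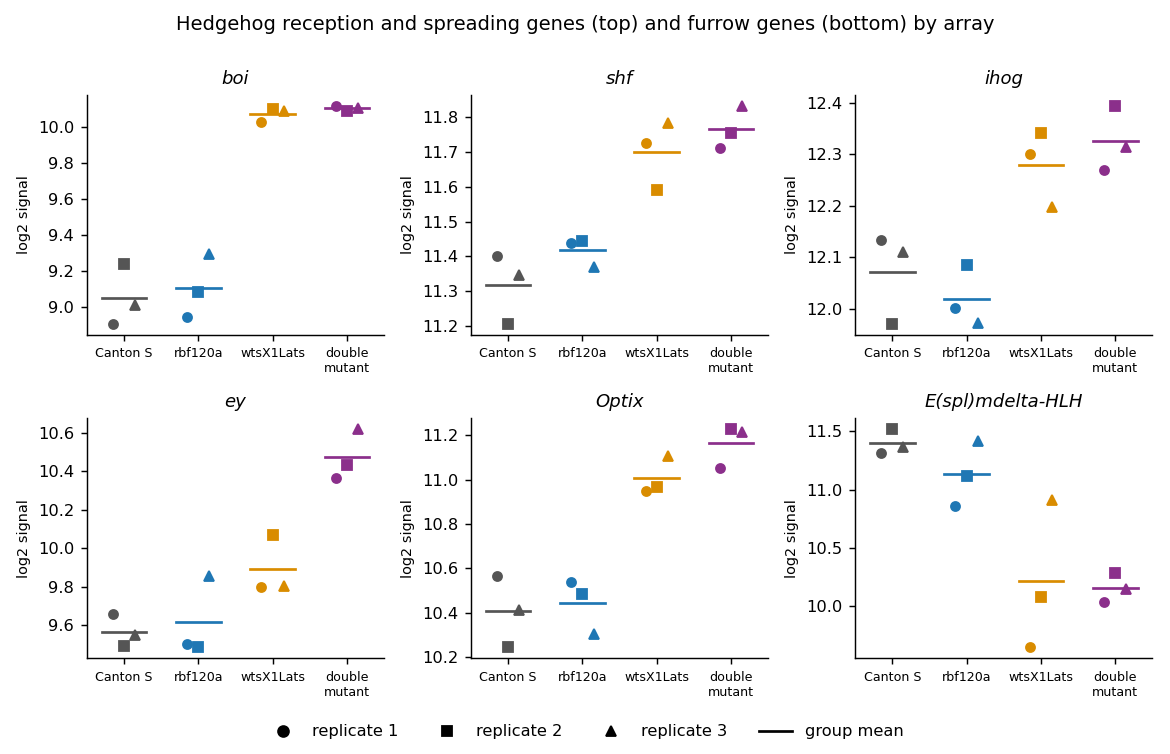
Log2 signal in each array (points, shaped by replicate) with genotype means (bars) for boi, shf and ihog, which act in Hedgehog reception or spreading, and for the furrow genes ey, Optix and E(spl)mdelta-HLH; the vertical axes differ between panels. boi, shf, ihog and Optix are higher in all 6 arrays with the wts allele than in the 6 without it. The share of all genes that separate in this way is not given here.

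The co-receptor gene ihog, the close relative of boi, showed the same separation of arrays at a smaller size. Its mean was 12.07 ± 0.09 (SD, n = 3) for Canton S, 12.02 ± 0.06 for rbf120a, 12.28 ± 0.07 for wtsX1Lats and 12.33 ± 0.06 for the double mutant. Its change of 0.21 ± 0.08 (SE) for wtsX1Lats (adjusted p = 0.141) and of 0.25 ± 0.08 for the double mutant (adjusted p = 0.0846) did not pass. Averaged over both backgrounds, groups with the wts allele differed from those without it by 0.26 ± 0.05 for ihog (limma adjusted p = 0.0179). For boi the difference was 1.01 ± 0.08 (adjusted p = 4.22e-05). In that contrast, chosen after seeing the data, 3 of the 16 listed genes measured rose and 0 fell, where 5.67% of all genes were called. ihog was named here after its values were seen.

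Among the other genes of the Dpp pathway none was called. Of 23 listed genes 18 were measured, and 0 rose and 0 fell in each of the 3 comparisons with Canton S, with 0, 5 and 2 at an unadjusted p under 0.05 for rbf120a, wtsX1Lats and the double mutant, where 12.5%, 20.7% and 16.4% of all genes had one. Without wtsX1Lats replicate 3, 3 fell in wtsX1Lats and 1 in the double mutant, beside 13.3% and 8.46% of all genes called. Without wtsX1Lats replicate 1, 1 fell in the double mutant, beside 9.01% of all genes called. In wtsX1Lats 1 rose without double mutant replicate 2, among genes with a mean of at least 6, without variance trend and with quantile normalization. In these settings 4.56%, 9.51%, 6.2% and 6.01% of all genes tested were called. The median change of the 18 genes was 0.00, -0.05 and 0.02, against 0.00, 0.02 and 0.00 for all genes. In wtsX1Lats the smallest p belonged to tld, which encodes a protease that frees BMP ligands from their antagonist, at 0.51 ± 0.15 (SE, adjusted p = 0.0634). In the double mutant it belonged to salm, a zinc finger gene that is a Dpp target in the wing and a photoreceptor gene in the eye, at -1.08 ± 0.38 (adjusted p = 0.143). The signal of salm was 8.13, 8.85 and 10.22 for wtsX1Lats and 8.86, 9.15 and 9.06 for the double mutant, against 9.85, 10.28 and 10.17 for Canton S. As for hh, replicate 3 of wtsX1Lats lay among the Canton S arrays.

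The genes that act with Hedgehog and Dpp at the furrow changed in both directions. Of 27 listed proneural and furrow genes 18 were measured, of which 1 rose and 2 fell in wtsX1Lats and 3 rose and 3 fell in the double mutant, while 0 were called in rbf120a. Over all genes, wtsX1Lats had 2.28% that rose and 3.33% that fell, and the double mutant 2.23% and 3.26%. Without replicate 1 or replicate 3 of the double mutant, 2 rose and 0 fell there. In these settings 2.94% and 2.48% of all genes were called in either direction. Without Canton S replicate 1, 2 rose and 1 fell in the double mutant (2.71% of all genes). Without wtsX1Lats replicate 3, 7 fell in wtsX1Lats and 5 in the double mutant (13.3% and 8.46% of all genes called). Without wtsX1Lats replicate 1, 5 rose in the double mutant (9.01%). In wtsX1Lats 1 fell without Canton S replicate 1 (2.48%). There 2 rose and 1 fell without Canton S replicate 2 (4.17%), and 2 rose without wtsX1Lats replicate 1 (4.73%). Optix and ey, which act in undifferentiated cells ahead of the furrow, were among those that rose. The genes toy and tsh of the same list were measured and not called in wtsX1Lats or the double mutant. The 10 eye disc genes measured, Optix and ey among them, had a median change of -0.31 in wtsX1Lats and -0.30 in the double mutant. The homeobox gene Optix rose by 0.60 ± 0.11 (SE, adjusted p = 0.00744) in wtsX1Lats and by 0.76 ± 0.11 (adjusted p = 0.00179) in the double mutant. The Pax6 gene ey rose by 0.91 ± 0.13 (adjusted p = 0.00179) in the double mutant and stood at 0.32 ± 0.13 (adjusted p = 0.176) in wtsX1Lats. The mean log2 signal of Optix was 10.41 ± 0.16 (SD, n = 3) for Canton S, 11.01 ± 0.09 for wtsX1Lats and 11.16 ± 0.10 for the double mutant. The call of Optix in wtsX1Lats ended in a fit over those 6 arrays alone (adjusted p = 0.106) and without wtsX1Lats replicates 1 and 3 together (0.0693). From rbf120a to the double mutant ey rose by 0.86 ± 0.13 (adjusted p = 0.0100) and Optix by 0.72 ± 0.11 (adjusted p = 0.00968), each call ending in 3 of 22 alternatives (adjusted p up to 0.0731 and 0.0671).

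A Notch target and a neural precursor gene fell. E(spl)mdelta-HLH, a Notch-induced repressor gene of cells behind the furrow, fell by 1.19 ± 0.25 (SE, adjusted p = 0.0174) in wtsX1Lats and by 1.24 ± 0.25 (adjusted p = 0.0128) in the double mutant. ase, a proneural-family gene of neural precursors, fell by 0.82 ± 0.14 (adjusted p = 0.00605) and by 0.66 ± 0.14 (adjusted p = 0.0197). ase is also on the list of 6 brain genes, whose mean was 6.47 to 6.81 with the wts allele and 6.91 to 7.34 without it. The E(spl)mdelta-HLH calls ended without Canton S replicate 1 or 2 in wtsX1Lats (adjusted p = 0.0545 and 0.0586) or in a fit of those groups alone (0.102), and without replicate 1 or 3 of the double mutant (adjusted p up to 0.0561), and that of ase in the double mutant in 5 of 21 alternatives, with adjusted p up to 0.0908. The other 2 calls in the double mutant were those of the EGF receptor gene Egfr, which rose by 0.65 (adjusted p = 0.0307), and the proneural gene sc, which fell by 0.56 (adjusted p = 0.0472). They ended in 5 and 10 of 22 alternatives (adjusted p up to 0.137 and 0.198), that of sc also with a replicate block (0.0737). In wtsX1Lats the ase call ended without replicates 1 and 3 together (adjusted p = 0.137). The median change of the 18 genes was -0.14 for wtsX1Lats and -0.10 for the double mutant, against 0.02 and 0.00 for all genes.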

How the data were processed

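The 12 arrays came as 1 table, deposited by the authors on what its range of values shows to be a log2 scale, covering 18952 probe sets; how it was summarised and normalized was not given in the sources used here. Array distributions differed from their mean by 0.026 on average. Per the labels' protocols, biotin-labelled cRNA came from 6 ug of total RNA. Of the probe sets, 183 were controls, 13647 had 1 gene, 402 several and 4720 none in the platform annotation, and 13544 matched RefSeq genes (assembly Release 6 plus ISO1 MT), used for names and chromosomes alone. Where a gene had several probe sets, that of the highest mean signal stood for it.

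limma 3.58.1 in R 4.3.3 (lmFit, eBayes with a variance trend) fitted 4 group means, with 8 residual degrees of freedom, and was tested on simulated data. Members, lists and tests were chosen with earlier results of these data known. All listed genes on the annotation were counted, and at most 4 called genes per list and comparison were named (Egfr and sc, beyond these, after their values were seen), or up to 2 with the smallest p where none passed. Genes of like pattern were to be named for called furrow genes only, so none were. Replicate numbers were not used to pair the samples in the fit reported. Over all genes, deviations of same-numbered arrays correlated between -0.30 and 0.31 (18 pairs, median -0.08). Those of arrays with different numbers correlated between -0.34 and 0.46 (36 pairs, median -0.03). Whether arrays of the same number shared a batch was not tested. Depth is not defined for arrays, detection calls were not used here, and precision is limited by how many arrays there are. No sequence is shown.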

Additional observations from a re-analysis of the deposited data

How the results depend on the processing

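Which furrow genes were called depended on the arrays used and on the fit. The number called among the 9 was 0 in all comparisons of the fit reported. With single arrays left out it lay between 0 and 2 for wtsX1Lats against Canton S. The 2 were hh and Dad without wtsX1Lats replicate 3, where 13.3% of all genes were called and both estimates also moved away from 0. For the double mutant against Canton S the number lay between 0 and 2, beside 2.48% to 9.01% of all genes. For the averaged effects of wts and rbf it lay between 0 and 1 each, beside 2.99% to 11.6% and 0.876% to 3.66% of all genes. For the double mutant against Canton S it was 2 (hh and tkv) without wtsX1Lats replicates 1 and 3 together and in a fit of those groups alone, 1 (tkv) among genes with a mean of at least 6, 3 with array weights and 2 with gene by gene array weights; of all genes tested 11.7%, 8.98%, 8.85%, 37.3% and 20.3% were called in these 5 settings. For wtsX1Lats against Canton S it was 1 (hh) without replicates 1 and 3 together and 1 with gene by gene weights (2.6% and 16.9% of all genes). With array weights it was 1 for rbf120a against Canton S and 1 for the double mutant against rbf120a (tkv both times, beside 26.8% and 4.92% of all genes). For the double mutant against wtsX1Lats it was 1 (tkv) with gene by gene weights (0.618% of all genes). The averaged effects of wts and rbf each gave 1 (hh and tkv) with both kinds of weights. With array weights 11.5% and 5.83% of all genes were called for these effects, and with gene by gene weights 16.6% and 9.91%. The default weights stopped before converging and gave Canton S replicate 1 a weight of 28.8, so the gene by gene method was added after seeing the data. The replicate block left 0 furrow genes called, changing no call among them. No change called in any of these settings had another sign than in the fit reported. Without detection calls, signal over background cannot be given for a probe set.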
